A study of Homo sapiens with 24 samples.

Results

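The ID family comprises ID1, ID2, ID3 and ID4, the inhibitors of DNA binding. Its 4 genes were taken by gene symbol from the 16795 genes listed in at least 1 of the deposited tables, and all 4 were listed in all 5 tables. They were selected on a reading of their levels and drug effects in these same libraries, so their values are given as descriptions, with no test. The study treated 4 human small-cell lung cancer cell lines, a neuroendocrine lung tumour type, with lurbinectedin or with its vehicle. The groups were 0.1 nM lurbinectedin for 24 h and DMSO for 24 h in each of H187 and H209, described as high for the transcription factor ISL1, and in each of H82 and SHP-77, described as low for it. Each of these 8 groups had 3 libraries of ribosome-depleted total RNA, 24 in all, with 24226553 to 36415190 listed counts per library. All cultures shared one serum-containing medium, and each ISL1 class is represented by 2 lines. Lurbinectedin is an alkylating agent that binds DNA and stalls transcribing RNA polymerase II.

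ID proteins carry the helix-loop-helix dimerisation domain of the basic helix-loop-helix (bHLH) transcription factors but lack the basic region that contacts DNA. They bind the broadly expressed E proteins and so keep them from pairing with tissue-specific bHLH factors such as NEUROD1, which directs neuroendocrine gene expression. ID1, ID2 and ID3 are well-known targets of bone morphogenetic protein (BMP) signalling through SMAD1, SMAD5 and SMAD9, and ID4 is best known from neural precursors and mammary epithelium.

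In hg38, ID1 lies on the plus strand at chr20:31605283-31606514, and ID2 on the plus strand at chr2:8681983-8684453. ID3 lies on the minus strand at chr1:23557930-23559794, and ID4 on the plus strand at chr6:19837370-19842200. The files give 3 exon entries for each and lengths of 1232 bases for ID1, 1364 for ID2, 1239 for ID3 and 3876 for ID4. The antisense gene ID2-AS1 (chr2:8670984-8681863, minus strand) ends upstream of ID2 and does not overlap it. It averaged at most 4.65 CPM in any group.

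The stretches just upstream of the 4 start sites are shown because 3 of the 4 genes moved together under the drug in some lines while ID4 did not. They are RefSeq reference sequence of GRCh38.p14, written 5′ to 3′ on the strand of the gene, and capitals mark matches of the motifs searched. The ID1 stretch is chr20:31605039-31605282, the ID2 stretch chr2:8681806-8681982, the ID3 stretch chr1:23559502-23559531 and the ID4 stretch chr6:19837120-19837369. The ID3 stretch is kept to 30 bases because its window lies in an exon of the deposited annotation.
ID1: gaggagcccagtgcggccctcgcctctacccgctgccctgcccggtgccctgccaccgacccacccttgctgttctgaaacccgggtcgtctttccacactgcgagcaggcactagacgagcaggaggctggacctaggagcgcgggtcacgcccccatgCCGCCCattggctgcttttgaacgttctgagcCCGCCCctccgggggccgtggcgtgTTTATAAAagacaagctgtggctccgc
ID2: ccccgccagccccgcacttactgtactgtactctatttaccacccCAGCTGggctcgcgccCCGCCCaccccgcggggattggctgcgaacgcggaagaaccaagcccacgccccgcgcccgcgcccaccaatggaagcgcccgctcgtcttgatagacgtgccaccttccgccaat
ID3: ctataagtgaccgccgcggcgagcgtgcgc
ID4: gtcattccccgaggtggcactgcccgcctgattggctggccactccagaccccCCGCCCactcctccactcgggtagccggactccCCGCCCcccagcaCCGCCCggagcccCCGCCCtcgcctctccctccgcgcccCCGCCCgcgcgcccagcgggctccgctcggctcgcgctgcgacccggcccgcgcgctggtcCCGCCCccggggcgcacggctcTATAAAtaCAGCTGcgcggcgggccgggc

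The motifs were searched on both strands in windows of 250 bases before to 50 after the start, beside all 35116 promoters of the same table. The GC box GGGCGG matched 6 times in the ID4 window, 2 times each in the ID1 and ID2 windows and 0 times in the ID3 window, and 45% of all promoters held it. One of the matches at ID2 lies nearer the start site than the stretch shown. The TATA motif TATAAA matched in the ID4 window and, in overlapping positions on both strands, in the ID1 window, and 11.5% of all promoters held it. The E-box CANNTG, the site type of E protein dimers, matched 1 time in the ID2 window and 1 time in the ID4 window, and 68.7% of all promoters held it. No match was found in any of the 4 windows for the SMAD-type motif GGCGCC (19.2% of all promoters), for GTCTAGAC (0.202%), for the cyclic AMP response element TGACGTCA (1.85%) or for the AP-1 motif TGANTCA (7.71%). The GC content of the windows was 62.7% for ID1, 69% for ID2, 59.7% for ID3 and 76.3% for ID4, beside a median of 58.7% over all promoters. A motif match is a description of the sequence only.

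Levels are in CPM, counts scaled to library size, with sizes adjusted by trimmed mean of M-values (TMM). They are relative to all RNA in a library, so in these bulk samples fewer cells that make a transcript and less of it per cell cannot be told apart. The 3 libraries of a group are biological triplicates per the design text. The p-values printed below belong to other genes and measure only the spread between these libraries.

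ID1 was high in 3 lines and low in H82. In H187 it stood at 266, 262 and 273 CPM in the lurbinectedin libraries, against 332, 338 and 307 CPM in the DMSO libraries. In H209 it stood at 222, 214 and 223 CPM with lurbinectedin, against 276, 267 and 273 CPM with DMSO. Every treated library of these 2 lines was below every DMSO library of the same line. In SHP-77 the values were 215, 205 and 206 CPM with lurbinectedin, against 241, 232 and 232 CPM with DMSO. In H82 they were 22, 20.7 and 21.7 CPM with lurbinectedin, against 22, 20.8 and 23.3 CPM with DMSO. The SHP-77 groups did not overlap, and the H82 groups did. Under DMSO the order was H187, H209, SHP-77 and H82, with a ratio of 14.8 from highest to lowest, and the libraries of neighbouring lines did not overlap. Under lurbinectedin the ratio was 12.4 and the order the same, but H209 and SHP-77 overlapped.

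ID2 had the same broad pattern, with an even lower level in H82. In H187 it stood at 266, 266 and 280 CPM with lurbinectedin, against 311, 297 and 282 CPM with DMSO. In H209 it stood at 323, 323 and 321 CPM with lurbinectedin, against 351, 341 and 328 CPM with DMSO. All treated libraries of both lines were below the DMSO libraries, though in each line the gap between the nearest libraries was small. In SHP-77 it stood at 304, 309 and 297 CPM with lurbinectedin, against 320, 337 and 333 CPM with DMSO. In H82 it stood at 12.9, 11.7 and 12.3 CPM with lurbinectedin, against 13.3, 14 and 12.5 CPM with DMSO. The SHP-77 groups were apart and the H82 groups overlapped. The highest line, H209, had 25.6 times the DMSO level of H82 and 26.2 times its level under lurbinectedin. H209 and SHP-77 overlapped under DMSO, and no other neighbours in the order did under either treatment.

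ID3 varied least between lines. In H187 it stood at 224, 226 and 236 CPM with lurbinectedin, against 270, 275 and 241 CPM with DMSO. In SHP-77 it stood at 132, 120 and 135 CPM with lurbinectedin, against 148, 145 and 151 CPM with DMSO. In both lines all treated libraries were the lower ones. H209 went the other way, at 105, 111 and 103 CPM with lurbinectedin, against 95.5, 93.9 and 99.5 CPM with DMSO. In H82 it stood at 46.6, 46 and 48.3 CPM with lurbinectedin, against 51.3, 57 and 46 CPM with DMSO. The H209 groups did not overlap, and in H82 the lowest DMSO library reached the treated range. The order under both treatments was H187, SHP-77, H209 and H82, with ratios from highest to lowest of 4.87 under lurbinectedin and 5.09 under DMSO and no overlap between neighbours.

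ID4 separated the lines most. In H209 it stood at 719, 708 and 704 CPM with lurbinectedin, against 701, 680 and 696 CPM with DMSO. In H187 it stood at 277, 292 and 277 CPM with lurbinectedin, against 275, 280 and 296 CPM with DMSO. The H209 groups were narrowly apart, with the treated libraries higher, and the H187 groups overlapped. In H82 it stood at 16.5, 18 and 17.1 CPM with lurbinectedin, against 14.3, 15.8 and 16 CPM with DMSO. In SHP-77 it stood at 2.95, 3.63 and 3.2 CPM with lurbinectedin, against 2.8, 3.54 and 2.71 CPM with DMSO. All H82 treated libraries were the higher ones, and the SHP-77 groups overlapped. The SHP-77 values rest on 88 to 108 counts per treated library and 86 to 113 counts per DMSO library, the fewest of any member. H209 had 218 times the SHP-77 level under lurbinectedin and 229 times under DMSO, and no neighbours in the order H209, H187, H82 and SHP-77 overlapped.

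**Figure D1:**
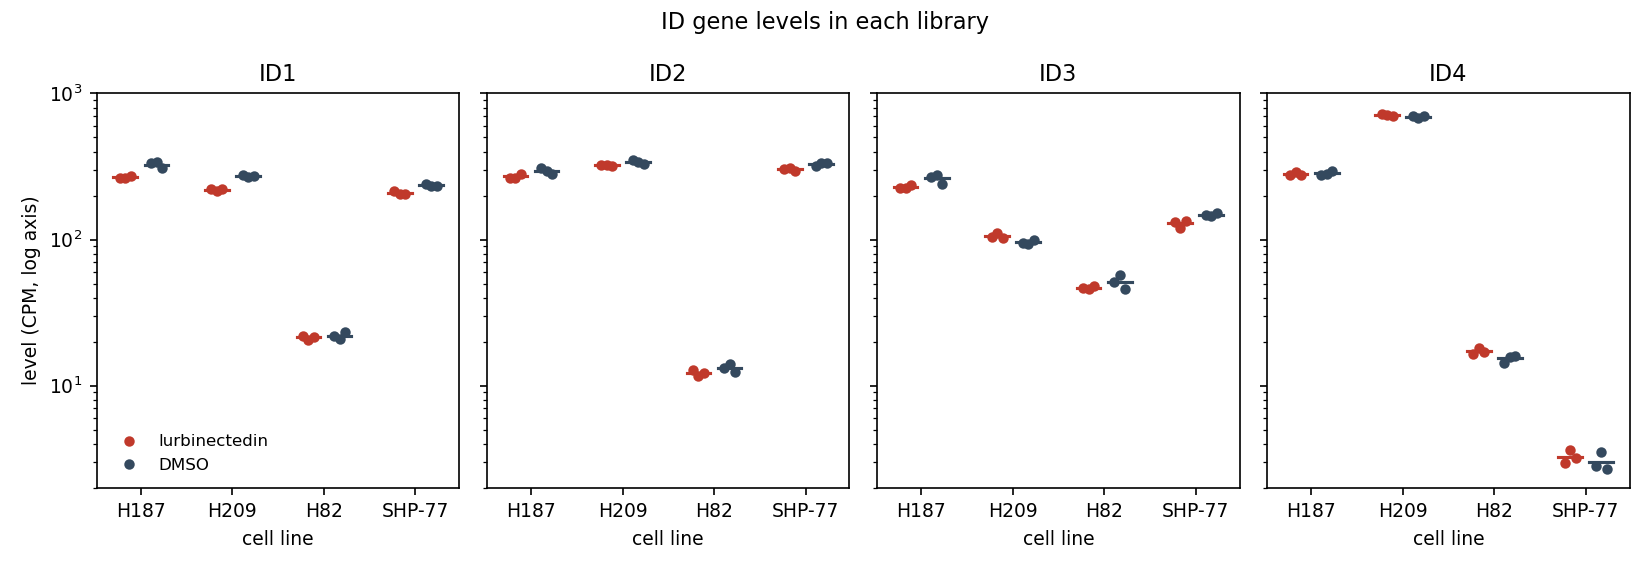
Level of each ID gene in CPM on a log axis, by cell line, with lurbinectedin in red and DMSO in blue; each point is 1 library and each bar the mean of 3. ID1 and ID2 are low in H82, while ID4 is low in H82 and lowest in SHP-77, at 3.26 CPM with lurbinectedin and 3.02 CPM with DMSO on average.

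Both ISL1-high lines lay above both ISL1-low lines for ID4 and, on average, for ID1, and not for ID2 or ID3. For ID1 the margin of H209 over SHP-77 was small, and their libraries overlapped under lurbinectedin. ID4 averaged 284 ± 10.6 and 693 ± 11 CPM in the ISL1-high lines H187 and H209 under DMSO, against 15.4 ± 0.907 and 3.02 ± 0.458 CPM in the ISL1-low lines H82 and SHP-77 (SD, n = 3 each). In SHP-77, ID1 averaged 235 ± 5.14 CPM and ID2 330 ± 9.15 CPM under DMSO, close to the values of the ISL1-high lines, and ID3 was higher in SHP-77 than in H209. ISL1 itself averaged 218 CPM with lurbinectedin and 250 CPM with DMSO in H187, and 163 CPM with lurbinectedin and 204 CPM with DMSO in H209. It was at most 4.01 CPM in the H82 groups and at most 0.912 CPM in the SHP-77 groups. Taken as the mean of the 2 ISL1-high lines minus the mean of the 2 ISL1-low lines on the log2 scale, the difference under lurbinectedin was 1.84 ± 0.03 for ID1, 2.26 ± 0.03 for ID2, 0.98 ± 0.03 for ID3 and 5.88 ± 0.03 for ID4 (SE). Under DMSO it was 2.05 ± 0.03 for ID1, 2.26 ± 0.03 for ID2, 0.87 ± 0.04 for ID3 and 6.03 ± 0.04 for ID4. For ID1 and ID2 this mean joins a line near the ISL1-high ones, SHP-77, with one far below them, H82. In the authors' deposited table the class difference under lurbinectedin was 1.08 for ID1, 0.91 for ID2, 0.93 for ID3 and 5.56 for ID4. All 4 members were past an adjusted p of 0.05 and higher in the ISL1-high lines under both treatments. The same call held for 47% of all genes under lurbinectedin and for 45.3% under DMSO, with 41.9% and 43.8% of all genes lower, and the lines count as fixed, so nothing is read from the members' calls. In absolute size, the ID4 difference was reached by 3.21% of the 14463 genes tested under lurbinectedin and by 0.0526% of the 11408 genes tested under DMSO, and that of ID3 by 37.1% under lurbinectedin and 30.4% under DMSO. The DMSO comparison covers genes listed in all 4 line tables, so its gene set differs from that under lurbinectedin. Genes not listed in every line, some with large class differences, are left out of it. The ID4 shares therefore cannot be compared between the treatments.

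On the scale of CPM per kilobase of listed gene length, which allows levels of different genes to be compared, the make-up of the family differed between lines. In H82, ID3 was the largest member, at 55.1% ± 0.657 of the summed ID level with lurbinectedin and 56.7% ± 3.01 with DMSO (SD, n = 3 each). In SHP-77, ID2 was the largest, at 44.8% ± 1.2 with lurbinectedin and 43.7% ± 1.06 with DMSO, and ID4 made up 0.17% with lurbinectedin and 0.141% with DMSO. The share of ID4 was highest in H209, at 26.8% ± 0.165 with lurbinectedin and 24.6% ± 0.251 with DMSO. In H209 the share of ID1 was 26.1% ± 0.602 with lurbinectedin and 30.4% ± 0.247 with DMSO. In H187, ID1, ID2 and ID3 each held between 27.5% and 32.2% with lurbinectedin and between 27.6% and 34.5% with DMSO.

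The summed level was 673 ± 14.6 CPM per kb with lurbinectedin and 766 ± 34.9 with DMSO in H187, and 684 ± 3.55 with lurbinectedin and 727 ± 11.7 with DMSO in H209 (SD, n = 3 each). It was 497 ± 7.48 with lurbinectedin and 553 ± 2.41 with DMSO in SHP-77, and 68.8 ± 1.46 with lurbinectedin and 73 ± 3.96 with DMSO in H82. Treated and DMSO libraries did not overlap in H187, H209 and SHP-77 and overlapped in H82. Among all single genes, 38.7% did not overlap in H187, 52.2% in H209, 22.1% in SHP-77 and 21.7% in H82. The log2 ratios of the mean sums were -0.19 in H187, -0.09 in H209, -0.15 in SHP-77 and -0.09 in H82.

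Set against the summed level of the 3 E protein genes TCF3, TCF4 and TCF12, also in CPM per kb, the ID sum was several times larger in 3 lines and smaller in H82. The ratio of ID to E protein sums was 6.71 ± 0.194 with lurbinectedin and 7.62 ± 0.214 with DMSO in H187 (SD, n = 3 each). It was 3.44 ± 0.0499 with lurbinectedin and 3.72 ± 0.081 with DMSO in H209, and 3.75 ± 0.0256 with lurbinectedin and 4 ± 0.0107 with DMSO in SHP-77. In H82 it was 0.558 ± 0.017 with lurbinectedin and 0.582 ± 0.0364 with DMSO. The treated ratios lay below the DMSO ratios without overlap in H187, H209 and SHP-77, and overlapped in H82. The E protein sum averaged 100 CPM per kb with lurbinectedin and 101 with DMSO in H187. It averaged 199 with lurbinectedin and 195 with DMSO in H209, and 132 with lurbinectedin and 138 with DMSO in SHP-77. The ratio contains the ID sum, so it is not a separate result. These are ratios of RNA, and protein was not measured.

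**Figure D2:**
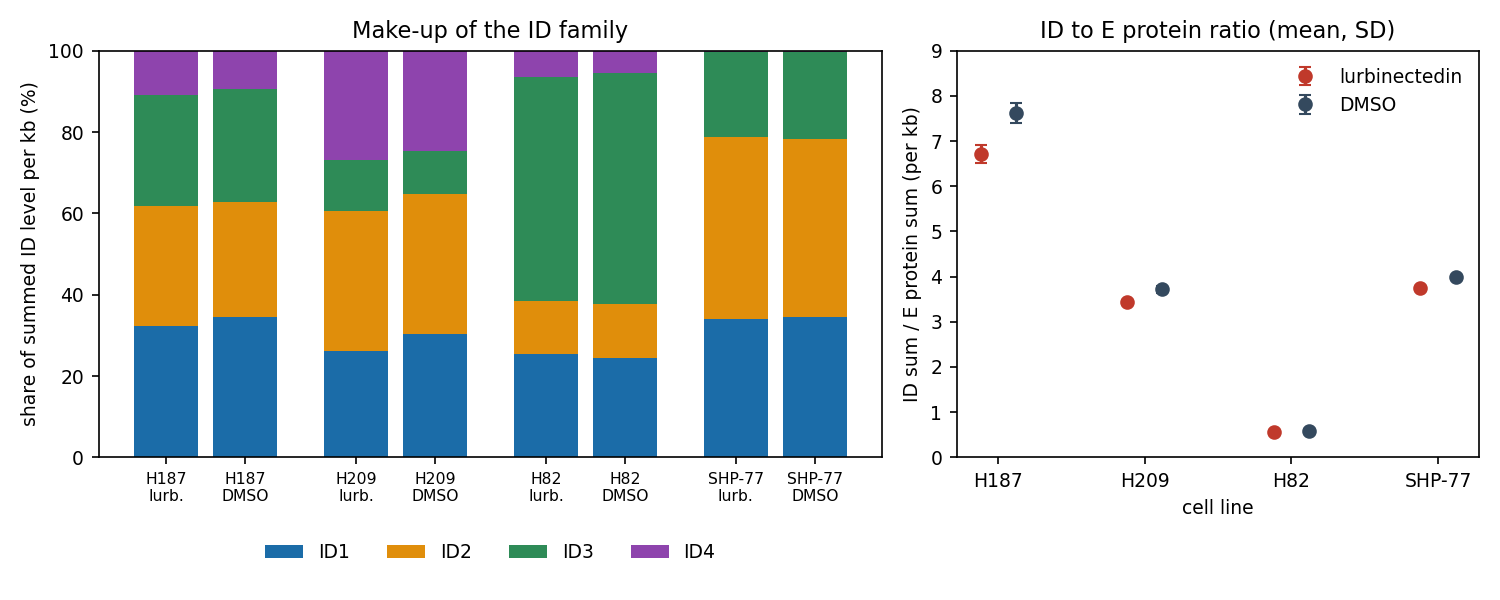
Left, share of each ID gene in the summed ID level per kb, in percent, for lurbinectedin (lurb.) and DMSO in each line; right, ratio of the summed ID to the summed E protein level per kb, as mean and SD of 3 libraries, with some error bars smaller than the points. H82 has the ratio below 1 and ID3 as its largest member, and SHP-77 has almost no ID4.

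The differences between lurbinectedin and DMSO were small and mostly negative. Across the 16 combinations of gene and line the log2 fold change of lurbinectedin over DMSO ran from -0.30 to 0.17. ID1 had the most negative values of the family, with -0.28 ± 0.04 in H187 and -0.30 ± 0.03 in H209 (SE), which are changes of -17.7% and -18.8%. Its value was -0.17 ± 0.03 in SHP-77 and -0.03 ± 0.06 in H82. ID2 had -0.13 ± 0.04 in H187, -0.07 ± 0.03 in H209, -0.12 ± 0.03 in SHP-77 and -0.10 ± 0.08 in H82. The ID2 values thus spanned a narrower range than those of ID1.

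ID3 had log2 fold changes of -0.19 ± 0.05 in H187, -0.20 ± 0.04 in SHP-77 and -0.12 ± 0.06 in H82, against 0.15 ± 0.03 in H209 (SE). H209 was the one line in which ID3 and ID1 moved in opposite directions. ID4 was close to level in H187, at -0.00 ± 0.04 with a 95% interval of -0.08 to 0.07, and had 0.04 ± 0.03 in H209. It had 0.17 ± 0.07 in H82 and 0.11 ± 0.15 in SHP-77, where the 95% interval of -0.18 to 0.40 reflects its low counts. The mean effect in the ISL1-high lines minus that in the ISL1-low lines was -0.19 ± 0.04 for ID1, 0.01 ± 0.04 for ID2, 0.14 ± 0.05 for ID3 and -0.12 ± 0.07 for ID4. For ID3 the ISL1-high mean joins H187, at -0.19, with H209, at 0.15, which moved in opposite directions.

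**Figure D3:**
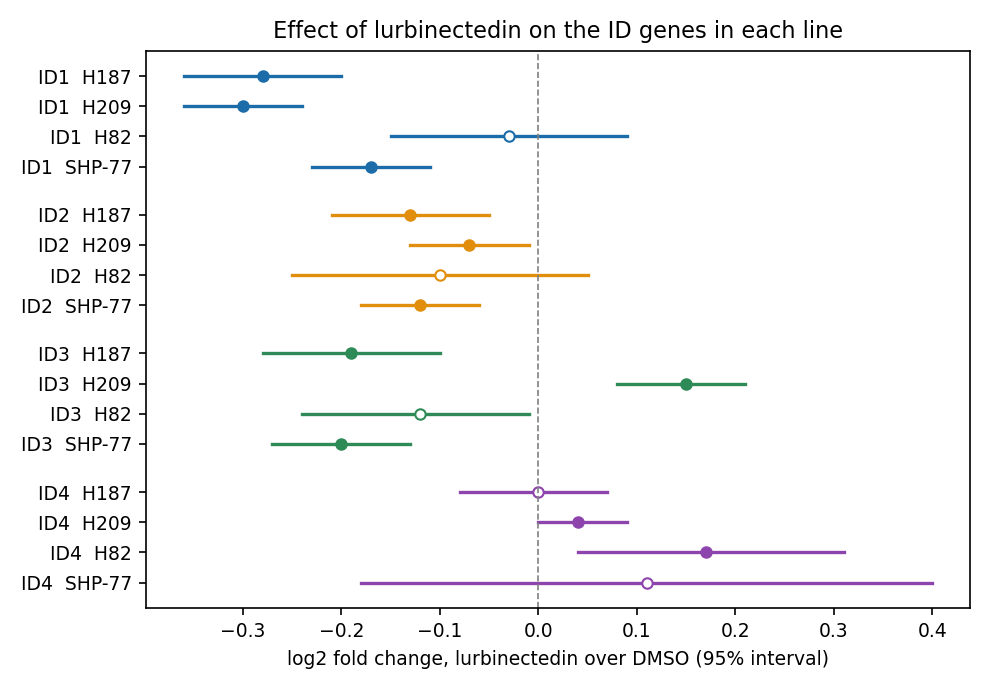
Log2 fold change of lurbinectedin over DMSO with its 95% interval for each ID gene in each line; filled points mark groups whose libraries do not overlap and open points groups that overlap. ID1 and ID3 lie at or below -0.17 in H187 and SHP-77, and ID3 lies at 0.15 in H209.

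The background against which these values stand differed between lines. Past an adjusted p of 0.05 (edgeR), 12.2% of the genes tested were higher and 12.7% lower in H187, and 3 members (ID1, ID2 and ID3) were among the lower ones. In H209, 22.7% were higher and 22.5% lower, with ID3 among the higher and ID1 among the lower ones. In SHP-77, 1.98% were higher and 3.21% lower, with ID1, ID2 and ID3 among the lower ones. In H82, 1.55% were higher and 1.38% lower, and 0 members were called. A correction for transcript GC content, added after the data were seen, gave 186 calls in H82, against 395 without it, and the share of calls that were higher was 23.7% with it and 52.9% without it. Of the 6 genes that the naming rule took from the lists as past the threshold in H82 and the 7 in SHP-77, each lost its call when at least 1 library was left out, as did 13 of 31 in H187 and 5 of 39 in H209. With 1 library left out the fits have fewer libraries, and the part of this in the lost calls was not tested. In the difference between ISL1-high and ISL1-low lines, 15.9% of genes were higher and 15.5% lower, with ID3 among the higher and ID1 among the lower ones. Groups that did not overlap were found for 38.7% of all genes in H187, 52.2% in H209, 22.1% in SHP-77 and 21.7% in H82. Since the members were chosen on these contrasts, nothing is read from their calls. In size, a change at least as large as that of ID1 was seen in 17.5% of genes in H187, 21.2% in H209, 16.3% in SHP-77 and 79.5% in H82. For ID3 in H209 the figure was 48.9%.

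Marker genes were checked beside these levels. Of 12 neuroendocrine markers, 10 or 11 were listed in each line, and their summed level was 1275 to 1298 CPM in treated and 1241 to 1313 CPM in DMSO libraries of H82. In the other lines it was 3204 to 5144 CPM in treated and 3170 to 5315 CPM in DMSO libraries. The line with the low ID1, ID2 and ID3 thus also had the low marker sum, and the part this plays in the ID levels was not tested. Of 6 fibroblast, 5 endothelial and 6 leukocyte markers, at most 3 per list were listed in any line, and no list summed to more than 9.15 CPM in any library.

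The partners of the ID proteins were tested over all genes of each line. TCF4, an E protein, fell to 98 ± 2.45 CPM with lurbinectedin in H187, against 126 ± 6.11 CPM with DMSO (SD, n = 3 each), a log2 fold change of -0.36 ± 0.05 (SE, edgeR adjusted p = 6.5e-06). It fell in H209 by 0.25 ± 0.03 on the log2 scale (adjusted p = 3.1e-08) and in SHP-77 by 0.11 ± 0.03 (adjusted p = 0.012), where the call was lost without lurbinectedin replicate 1 or 2 (adjusted p up to 0.059). In H82 its log2 fold change was -0.09 ± 0.04 (adjusted p = 0.24). The fall was larger in the ISL1-high than in the ISL1-low lines, with a difference of -0.20 ± 0.04 (adjusted p = 3e-05). TCF12, the E protein also called HEB, rose in H209 by 0.10 ± 0.02 (adjusted p = 0.00038) and did not pass the test in the other lines, with values of -0.08 in H187, -0.06 in H82 and -0.08 in SHP-77. TCF3, the gene of E12 and E47, passed in H209, at -0.10 ± 0.03 (adjusted p = 0.0075), and that call was lost without lurbinectedin replicate 3 of H209 (adjusted p = 0.075).

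Of 43 tissue-specific bHLH activators, 12 were tested in H187, where 0 rose and 3 fell, and 19 in H209, where 1 rose and 6 fell. Their median log2 fold change was -0.03 in H187 and -0.16 in H209, beside 0.00 over all genes in both. In H82, 1 of 16 rose, and in SHP-77 none of 6 passed the test in either direction. Over all genes tested, 12.2% rose and 12.7% fell in H187, and 22.7% rose and 22.5% fell in H209. In H82, 1.55% rose and 1.38% fell, and in SHP-77, 1.98% rose and 3.21% fell. The list counts here and below stand beside these shares, and no list was tested as a set. NEUROG1, a neurogenin that starts neuronal differentiation, fell in H209 by 0.64 ± 0.05 (adjusted p = 7.6e-15), and NEUROG2 fell there by 0.50 ± 0.07 (adjusted p = 2.5e-07). NEUROD1, a neuroendocrine bHLH factor, averaged 295 CPM with lurbinectedin and 288 CPM with DMSO in H82, the line with the fewest ID transcripts, and at most 12.7 CPM in the H187 and H209 groups. It is not listed in the SHP-77 table. Its log2 fold change in H82 was 0.05 ± 0.04 (adjusted p = 0.57).

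Several, but not all, HES and HEY genes encode bHLH repressors that answer to Notch signalling. Of 13 HES, HEY and BHLHE40-type repressors, 2 of 7 tested rose in H187 and 2 of 5 in H209, with 0 lower in either, and none passed in H82 or SHP-77. HEY2 rose to 4.81 CPM with lurbinectedin in H209, against 2.38 CPM with DMSO (1.04 ± 0.14, adjusted p = 7.1e-08), and HES1 rose to 5.53 CPM with lurbinectedin, against 2.99 CPM with DMSO (0.89 ± 0.13, adjusted p = 1.2e-07). The H187 call of HES4 was lost without DMSO replicate 1 or lurbinectedin replicate 1 (adjusted p up to 0.076). That of HEY2 was lost without DMSO replicate 1 or 2 or lurbinectedin replicate 3 (adjusted p up to 0.24).

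The BMP pathway that controls ID transcription was followed from ligands to SMADs. Of 13 BMP ligand genes, 7 were tested in H187, where 2 rose and 1 fell, and 6 in H209, where 1 rose and 1 fell, and none passed in H82 or SHP-77. BMP8B rose by 0.51 ± 0.08 in H187 (adjusted p = 3.2e-05) and by 0.19 ± 0.04 in H209 (adjusted p = 0.00016). Of 13 TGF-beta and activin ligand genes, 2 of 5 tested rose in H187, 3 of 7 rose and 1 fell in H209, and 2 of 7 rose in SHP-77. INHBE, which encodes an activin subunit, rose to 10.5 CPM with lurbinectedin in H187, against 3.44 CPM with DMSO (1.61 ± 0.11, adjusted p = 6.2e-10). It rose to 20 CPM with lurbinectedin in H209, against 5.51 CPM with DMSO (1.87 ± 0.08, adjusted p = 4.1e-23).

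Of 18 receptors and co-receptors, 12 were tested in H187, where 3 rose and 1 fell, and 13 in H209, where 3 rose and 2 fell. In H82, 1 of 12 fell, and in SHP-77 none of 13 passed. BMPR2, the type II BMP receptor, fell by 0.26 ± 0.05 in H187 (adjusted p = 0.00065) and by 0.21 ± 0.03 in H209 (adjusted p = 1.8e-06). Its log2 fold change was -0.01 ± 0.04 in H82 (adjusted p = 0.95) and -0.04 ± 0.03 in SHP-77 (adjusted p = 0.51), and the difference between the classes was -0.21 ± 0.04 (adjusted p = 0.00029). The type I receptor BMPR1A fell in H209 by 0.19 ± 0.04 (adjusted p = 0.00032). RGMA, a BMP co-receptor, rose in H187 by 0.78 ± 0.13 (adjusted p = 0.00011), at 5.99 CPM with lurbinectedin, against 3.51 CPM with DMSO.

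All 6 receptor and common SMADs were tested in every line. SMAD1 rose in H209 to 51.6 CPM with lurbinectedin, against 38.5 CPM with DMSO (0.43 ± 0.04, adjusted p = 1.4e-11), and SMAD5 rose there by 0.20 ± 0.03 (adjusted p = 1e-06). In H187 none of the 6 passed, with SMAD1 at 0.00 ± 0.05 (adjusted p = 0.97). SMAD9 fell by 0.16 ± 0.04 in H82 (adjusted p = 0.027) and by 0.10 ± 0.03 in SHP-77 (adjusted p = 0.04). The H82 call was lost without DMSO replicate 1 or any treated library, and the SHP-77 call without DMSO replicate 2 or 3 or any treated library, with an adjusted p of up to 0.15 in both lines.

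SMAD6 and SMAD7, inhibitory SMADs that are themselves induced by the pathway, passed the test in none of the 4 lines. SMAD6 had log2 fold changes of -0.08 ± 0.08 in H187, -0.04 ± 0.07 in H209, -0.23 ± 0.28 in SHP-77 and 0.20 ± 0.11 in H82. SMAD7 had -0.03 ± 0.12 in H187, 0.06 ± 0.04 in H209, 0.08 ± 0.06 in SHP-77 and -0.11 ± 0.11 in H82. Of 14 SMAD target genes, 11 were tested in each line. This list includes SMAD6 and SMAD7, and it shares SMAD9, BAMBI and SKIL with other lists described here, so these genes are counted more than once. In H187 2 rose and 2 fell, in H209 2 rose and 3 fell, and in H82 and SHP-77 1 fell each, with medians between -0.03 and 0.08. TGIF1, a SMAD co-repressor, fell by 0.26 ± 0.04 in H187 (adjusted p = 0.00012) and by 0.47 ± 0.06 in H209 (adjusted p = 2.2e-09).

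Secreted BMP antagonists had 2 of 5 tested genes higher in H187 and none past the test in H209, H82 or SHP-77. The call of FSTL3 was lost without lurbinectedin replicate 1 or 3 (adjusted p up to 0.064), and that of TWSG1 without lurbinectedin replicate 2 or 3 (adjusted p up to 0.08). Of 10 intracellular and membrane inhibitors of the pathway, 1 fell in H187, 3 rose and 3 fell in H209, and none passed in H82 or SHP-77. In H209 BAMBI, a pseudoreceptor that blocks BMP and TGF-beta receptors, rose by 0.29 ± 0.05 (adjusted p = 7e-06) and the SMAD co-repressor SKIL by 0.25 ± 0.04 (adjusted p = 1.5e-07).

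Of 12 other regulators of ID transcription, 10 were tested in H187, where 3 rose and 1 fell, and 9 in H209, where 5 rose and 1 fell, and none passed among the 11 tested in H82 and the 10 in SHP-77. ATF3, a stress-induced factor known to repress ID1 together with SMAD3 in epithelial cells, rose to 21.4 CPM with lurbinectedin in H187, against 7.98 CPM with DMSO (1.42 ± 0.08, adjusted p = 2e-11). In H209 it rose to 138 CPM with lurbinectedin, against 24.1 CPM with DMSO (2.53 ± 0.04, adjusted p = 2.5e-40). Its log2 fold change was 0.02 ± 0.08 in H82 (adjusted p = 0.93) and 0.01 ± 0.09 in SHP-77 (adjusted p = 0.98). EGR1, an immediate-early factor, rose by 0.69 ± 0.12 in H187 (adjusted p = 0.00025) and by 1.02 ± 0.08 in H209 (adjusted p = 3.6e-15). SP1, which binds GC boxes, rose in H209 by 0.42 ± 0.03 (adjusted p = 2.7e-15).

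Of 8 genes for ID protein turnover, 1 rose and 1 fell in H187, 3 rose and 2 fell in H209, 2 rose in H82 and none passed in SHP-77. USP1, a deubiquitinase that stabilises ID proteins, rose in H209 to 301 CPM with lurbinectedin, against 264 CPM with DMSO (0.19 ± 0.03, adjusted p = 5e-06). In H187 it rose by 0.12 ± 0.04 (adjusted p = 0.032), a call lost without DMSO replicate 1 or 2 or lurbinectedin replicate 2 or 3 (adjusted p up to 0.14). CDC20, an activator of the anaphase-promoting complex, fell by 0.48 ± 0.05 in H187 (adjusted p = 3e-07) and by 0.45 ± 0.03 in H209 (adjusted p = 8e-16). The H82 calls were DYRK1B and FZR1. That of DYRK1B was lost without DMSO replicate 2 or any treated library (adjusted p up to 0.13) and with the GC correction (adjusted p = 0.14). That of FZR1 was lost without DMSO replicate 1 or 2 or any treated library (adjusted p up to 0.15), with DESeq2 (adjusted p = 0.053) and with the GC correction (0.08 on the log2 scale, adjusted p = 0.38).

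Of 11 other partners of ID proteins, among them the retinoblastoma family and ETS factors, 1 of 7 tested rose in H187, 1 of 8 rose and 1 fell in H209, and none passed in H82 or SHP-77. RBL1, a retinoblastoma relative, rose by 0.29 ± 0.04 in H187 (adjusted p = 6.1e-05) and by 0.30 ± 0.05 in H209 (adjusted p = 2.4e-06), and RBL2 fell in H209 by 0.22 ± 0.03 (adjusted p = 8.5e-07). Some CDK inhibitor genes are E protein targets that ID proteins hold down. Of 7, 1 of 6 tested rose and 3 fell in H187, 1 of 6 rose and 2 fell in H209, and none passed in H82 or SHP-77. CDKN1A, which encodes p21, rose to 93 CPM with lurbinectedin in H209, against 48 CPM with DMSO (0.96 ± 0.04, adjusted p = 2.2e-25), and by 0.19 ± 0.04 in H187 (adjusted p = 0.0027).

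**Figure D4:**
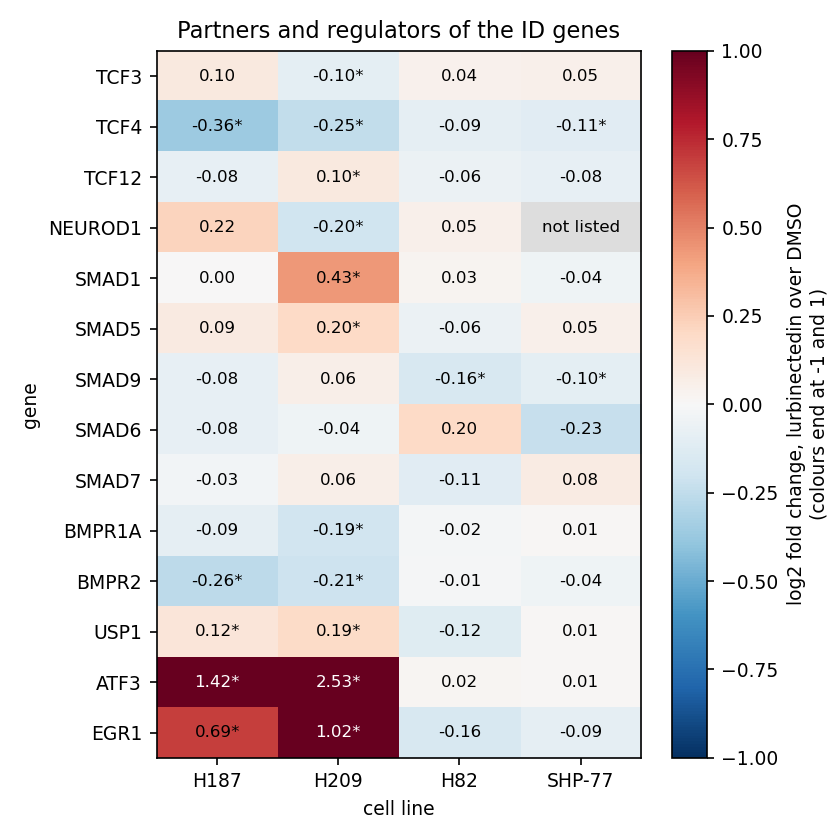
Log2 fold change of lurbinectedin over DMSO for E proteins, NEUROD1, BMP pathway genes and regulators of ID genes in each line; an asterisk marks an edgeR adjusted p under 0.05, and colours end at -1 and 1. ATF3, at 1.42 and 2.53, and EGR1, at 0.69 and 1.02, rose in H187 and H209, and SMAD1 rose in H209, at 0.43.

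The genes whose levels were most like those of each member were sought among 10359 genes by Pearson's r of log2 CPM over the 24 libraries. These libraries come from 4 lines, so such an r mostly reads the differences between lines, above all a line set far apart such as H82, and carries no test. ID1 was most like INPP5A (r = 0.999), ATP11A (0.998) and NAV1 (0.996). ID2 was most like ERO1B, BCL2 and CYFIP1 (0.997 each). ID3 was most like RAB3B (0.992), EIF4E3 (0.992) and TP73 (0.991), and ID4 was most like IGFBPL1 (0.996), NSD1 (0.995) and CREBL2 (0.994). Among the members, r was 0.989 for ID1 and ID2, 0.866 for ID1 and ID3, and 0.399 for ID1 and ID4. Spearman's rho for the same pairs was 0.523, 0.737 and 0.389. By rho the first genes, named after their values were seen, were FAM168A for ID1 (0.959), EXOC6B for ID2 (0.963), ATP1B1 for ID3 (0.98) and EPPK1 for ID4 (0.989).

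The same measure after taking the DMSO mean of its line from each library reads the drug response and the scatter of libraries. ID1 was then most like GSE1 (r = 0.952), TTC28 (0.933) and EIF4G3 (0.93). GSE1 averaged 577 CPM with lurbinectedin and 674 CPM with DMSO in H187, and 533 CPM with lurbinectedin and 648 CPM with DMSO in H209. ID2 was most like ATP5F1A (0.84), ILF2 (0.835) and RPL21 (0.821), and ID3 was most like GATC (0.861), NDUFAF4 (0.84) and MAP2K6 (0.815). ID4 was most like EPPK1 (0.834), and r for its next genes, PRRC2A (0.675) and TSGA10 (0.656), was lower. In SHP-77, ID4 stood at only 2.71 to 3.63 CPM. In H82 under DMSO, PRRC2A averaged 1.2 CPM and TSGA10 0.844 CPM. The part of scatter at low counts in these r was not tested. Among the members the response r was 0.559 for ID1 and ID2, 0.591 for ID2 and ID3, and 0.0796 for ID1 and ID3.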

How the data were processed

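Total RNA was sequenced from 24 libraries of 4 cell lines, 3 per line and treatment. Per the labels' protocols, libraries were made with a stranded, ribosome-depleted kit. The submitters' processing notes name edgeR 4.2.0, STAR 2.7.10a, Subread 2.0.3 and featureCounts with hg38; the annotation and the strand setting of the counting are not given in the sources used here. Per the file headers, the 5 deposited tables hold raw counts per gene, the authors' log2 values (CPM per sample and fold changes), signed fold values (a score), p-values and other columns with gene positions and lengths. The deposited tables list 13516 to 14463 genes, with at least 15 counts in some library, so low genes are not listed.

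From the counts, edgeR 4.0.16 in R 4.3.3 was run per line on 6 libraries: filterByExpr (minimum count 10, minimum total 15), TMM, glmQLFit and glmQLFTest, with Benjamini-Hochberg adjustment over all genes and a threshold of 0.05. The difference in response (24 libraries) and the class differences (12 libraries each) used a mean per line. CPM levels use TMM sizes over all 24 libraries, so ratios of them can differ slightly from fold changes of a line's fit. Intervals of 95% are from the SE. The steps were tested on simulated data. For the ID genes the text gives fold changes and SE, with no p, and the threshold is used only to count them beside all genes. Depth of 24226553 to 36415190 counts per library gives each member at least 86 counts.

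Members and lists were chosen with earlier results of these data known. Genes named are the members, ISL1, a panel of 15, up to 3 members past the threshold with the largest change per list and comparison, and the 3 genes most like each member whose log2 CPM averaged 1 or more. 1 gene that the rule would name is left out of the text and is not reported here, though it counts in the list totals. Replicate numbers did not pair the libraries, so no block was used. Alternatives were DESeq2 size factors (RLE), fits unfiltered for low counts, a mean of at least 1 CPM, DESeq2 1.42.0, replicate number as a block, all 24 libraries in 1 fit, the authors' deposited table, each library left out and, added after seeing the data, a GC correction (lowess, span 0.3). ID protein sequences were not analysed here.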

Additional observations from a re-analysis of the deposited data

Results flagged for a closer look

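ID3 moved in opposite directions in different lines. All 3 treated libraries were above all 3 DMSO libraries in H209 (log2 fold change 0.15), and all were below them in H187 (-0.19) and SHP-77 (-0.20). Groups that did not overlap were found for 52.2% of all genes in H209, 38.7% in H187 and 22.1% in SHP-77. In H209, 48.9% of genes changed at least as much as ID3. The difference between these single lines was not tested.

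The remaining results were noted because the mean response differed between the ISL1-high and ISL1-low lines, at an edgeR adjusted p under 0.05 in the test of that difference. Values are the mean log2 effect in the ISL1-high lines minus the mean in the ISL1-low lines. The lines count as fixed, so a difference can rest on a single line of a class. SMAD1 and TCF12, for example, passed the test within a line as higher in H209 only. Among regulators of ID transcription, the difference was 1.96 for ATF3, 0.99 for EGR1 and 0.38 for SP1. Among ligands it was 1.66 for INHBE, 0.45 for TGFB3, 0.28 for BMP8B and -0.29 for GDF11. Among receptors and SMADs it was -0.21 for BMPR2, 0.22 for SMAD1, 0.15 for SMAD5 and 0.12 for SMAD9. Among inhibitors and targets of the pathway it was 0.20 for SKIL, 0.11 for PPM1A, -0.13 for FKBP1A, -0.21 for PMEPA1, -0.45 for TGIF1 and -0.31 for ATOH8.

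Among bHLH genes it was -0.20 for TCF4, 0.08 for TCF12 and 0.89 for HEY2. Among genes for ID protein turnover it was 0.21 for USP1, -0.47 for CDC20 and -0.13 for FZR1. Among other partners it was 0.30 for RBL1, -0.15 for RBL2 and 0.11 for PAX5, and the PAX5 call was lost under 18 of 30 alternatives. CDK inhibitor genes CDKN2B and CDKN2C stood at -0.28 and -0.21, and the neuroendocrine marker SYT1 at -0.37.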

How the results depend on the processing

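Every ID gene effect whose groups did not overlap kept its sign under all 14 alternatives. With such groups, leaving out 1 library can hardly change the sign, so nothing is read from the kept signs. ID1 ranged from -0.33 to -0.25 in H187, from -0.20 to -0.15 in SHP-77 and from -0.34 to -0.28 in H209, where -0.34 came from the GC correction and was beyond 1 SE of the reported value. ID3 in H209 ranged from 0.12 to 0.17. In H82, ID1 ranged from -0.08 to 0.02. Under the authors' deposited table the class difference under lurbinectedin was 1.08 for ID1, 0.91 for ID2 and 5.56 for ID4, with 5478 genes past the threshold against 12858 in the reported fit, and BMP6 (-1.08) and SCG2 (-2.21) changed direction; under DMSO, AMH changed direction with the GC correction (-0.11). The cause was not tested. The H82 count of 395 genes was 755 with the replicate block, 186 with the GC correction, 652 in the authors' deposited table and 643 with all 24 libraries fitted together, and 93 to 1397 with 1 library left out (93 without lurbinectedin replicate 1 or 3, 109 without lurbinectedin replicate 2, 126 without DMSO replicate 1, 195 without DMSO replicate 2, 1397 without DMSO replicate 3). The SHP-77 count of 737 was 451 with all 24 libraries in 1 fit and 417 to 706 with 1 left out (417 without lurbinectedin replicate 1, 436 without lurbinectedin replicate 3, 431 without DMSO replicate 2). With the replicate block the counts were 2863 in H187, 6438 in H209 and 561 in SHP-77, against 3486, 6513 and 737 without it; same-numbered libraries deviated with r from -0.364 to 0.277 and 1 of 12 correlated best with its own number. Among 258 results of single named genes, 39 lost a call under at least 1 alternative and 1 changed direction, leaving aside the authors' table. Depth limits ID4 in SHP-77 most, and a p that misses the threshold does not show that a gene did not change. Alignment of ID proteins was not run.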
